A study of Mus musculus with 20 samples.

Results

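The genes described here are the 59 nuclear-encoded genes of respiratory chain complexes I to IV, taken by symbol from a table of 43629 genes. They comprise 36 Nduf genes of complex I, 4 Sdh genes of complex II, 9 genes of complex III (the Uqcr genes and Cyc1) and 10 Cox genes of complex IV. All 59 were found, and all passed the filter on low counts in every comparison. Nuclei of mouse spinal cord were sorted on NeuN, a nuclear protein of neurons encoded by Rbfox3, into NeuN-positive and NeuN-negative nuclei. The mice were healthy or had experimental autoimmune encephalomyelitis (EAE), in which immune cells attack the myelin of brain and cord and which serves as a mouse model of multiple sclerosis, 15 days after active immunization. This gave 4 groups of 5 libraries of polyadenylated RNA: Healthy NeuN-positive, EAE NeuN-positive, Healthy NeuN-negative and EAE NeuN-negative. The labels name no mutation, transgene or drug in any group, while strain, age, antigen and the number of mice behind a library are not stated in them. They number the libraries but do not say that each came from its own mouse, so p-values measure the spread between these libraries, which may be technical.

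The respiratory chain passes electrons from NADH and succinate to oxygen and pumps protons across the inner mitochondrial membrane, and ATP synthase uses the resulting gradient. Complex I oxidizes NADH and complex II oxidizes succinate. Both reduce ubiquinone, which complex III oxidizes to reduce cytochrome c, and complex IV passes those electrons to oxygen. Complexes I, III and IV combine subunits encoded in the nucleus with subunits encoded in mitochondrial DNA, whereas all complex II subunits are nuclear-encoded. Neurons depend heavily on this pathway to restore ion gradients after electrical activity.

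Total counts per library ran from 3149209 to 37689267. Of the 59 genes, 1 was at 0 in the EAE NeuN-negative 2 library and none in the others. Rbfox3 was at 313 ± 33.3 (SD, n = 5) CPM (the count scaled to library size with TMM factors) in healthy NeuN-positive and 29.7 ± 10.7 CPM in healthy NeuN-negative libraries. In EAE it was at 194 ± 58.6 and 29.3 ± 15.4 CPM, and its log2 difference between EAE and healthy NeuN-positive libraries was -0.62 ± 0.22 (edgeR adjusted p = 0.0918). Mitochondrially encoded transcripts took 0.135 to 2.33% of counts in healthy NeuN-positive, 0.821 to 7.52% in EAE NeuN-positive, 0.259 to 3.55% in healthy NeuN-negative and 1.76 to 12.3% in EAE NeuN-negative libraries. The replicates numbered EAE 2, EAE 4 and Healthy 3 were those with over 2% in NeuN-positive libraries, at 7.52, 4.17 and 2.33%, and in NeuN-negative libraries EAE 1 and EAE 5 were over 2% as well, at 3.65 and 6.01%. Their NeuN-positive libraries also held the highest summed levels of 13 oligodendrocyte markers, at 98090, 50160 and 44500 CPM against 3731 to 12720 CPM in the other 7. Results are therefore given with all libraries and without these 3 replicates.

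In healthy NeuN-positive nuclei the members differed widely in level per kilobase of exon, a scale used here to set genes beside each other. The length is that of all annotated exons of a gene merged. It can far exceed the transcript with the longest coding sequence, as for Ndufb2 (5628 against 455 bases). In complex I the highest was Ndufv1, which carries the FMN that accepts electrons from NADH, at 91.0 ± 26.4 CPM per kilobase. The lowest was Ndufb4, an accessory subunit of the membrane arm, at 1.87 ± 0.192. In complex II the flavoprotein gene Sdha stood at 38.7 ± 3.32 and the membrane anchor gene Sdhc at 9.60 ± 2.01 CPM per kilobase. The complex III genes ran from Uqcr10, a small subunit, at 145 ± 57.9 to Uqcrb, another small subunit, at 9.32 ± 3.95, and the complex IV genes from Cox4i1 at 104 ± 33.5 to Cox7c at 5.85 ± 3.06. Cox4i1 and the next complex IV gene, Cox8a at 103 ± 6.37 CPM per kilobase, did not differ beyond their spread on this scale. Their merged exons span 1550 and 619 bases and those transcripts 745 and 550 bases, so the comparison depends on the length used. Uqcrb has 3 near-identical gene copies elsewhere in the genome, and Cox7c, Ndufa12, Ndufb11, Ndufs3 and Ndufs5 have 1 each. Reads of these 6 of the 59 members may have been shared with or lost to copies.

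The summed levels of complexes I and IV were highest in 1 EAE NeuN-positive library. The complex I genes summed to 1412.4, 1493.2, 1933.5, 1815.8 and 1328.9 CPM in healthy NeuN-positive libraries 1 to 5 and to 1800.9, 3879.1, 1288.8, 2041.7 and 1735 CPM in EAE NeuN-positive libraries 1 to 5. The complex IV genes summed to 417.47, 477.82, 596.5, 580.87 and 491.78 CPM in the healthy and 641.88, 2013.8, 473.96, 889.44 and 622.78 CPM in the EAE libraries. EAE 2 was the highest and EAE 3 the lowest EAE library in both sums, and the 2 groups overlapped. Of the 59 members, 47 had their highest EAE NeuN-positive value in EAE 2 (79.7%, against 30.8% of all genes) and 38 their lowest in EAE 3 (64.4%, against 18.1%). EAE 2 also held the most mitochondrially encoded and oligodendrocyte transcripts of the NeuN-positive libraries. It held the most cytosolic ribosomal protein transcripts as well (6165 CPM, against 1212 to 3096 CPM in the other 9). Skeletal muscle markers summed to 285.1 CPM in EAE 2, against 40.05 to 88.62 CPM in the other 9. Monocyte and macrophage markers summed to 1947 CPM there (next 1021 CPM). The part of these transcripts in the result was not tested. Complex II ran from 248.73 to 310.02 CPM in healthy and from 241.53 to 298.52 CPM in EAE NeuN-positive libraries, and complex III from 571.48 to 835.83 and from 488.77 to 789.15 CPM. In NeuN-negative libraries complex I had a mean of 1509.7 ± 176.51 CPM in healthy and 1270.8 ± 197.74 CPM in EAE mice (SD, n = 5), complex III 495.54 ± 65.114 and 395.6 ± 115.86 CPM, and complex IV 509.71 ± 166.91 and 720.77 ± 127.1 CPM. The libraries overlapped in each case. The direction for complex I turned with the scaling, and that for complex III turned only when the 3 replicates were left out as well. Scaled to the total count without mitochondrially encoded genes, complex I had a mean of 1489.1 ± 239.43 CPM in healthy and 1520.5 ± 228.02 CPM in EAE NeuN-negative libraries. On that scale complex III had 489.21 ± 88.191 and 472.92 ± 133.45 CPM with all libraries, and 504.74 ± 93.609 and 543.13 ± 112.88 CPM without the 3 replicates. Complex IV was higher in EAE on average on each scale, at 506.2 ± 189.07 and 863.62 ± 156.17 CPM on this one.

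**Figure D1:**
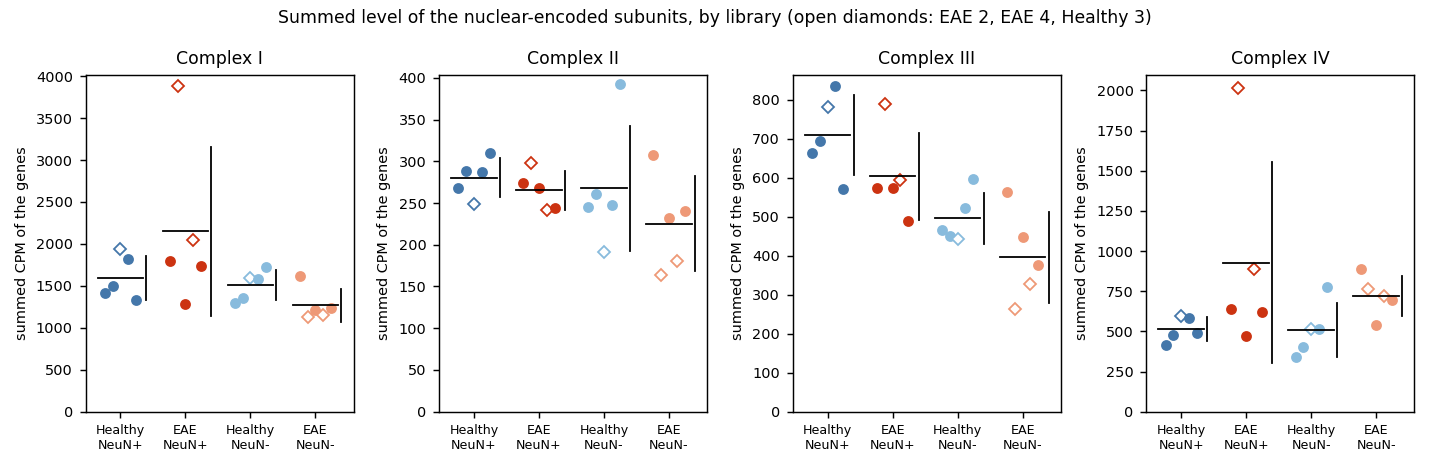
Summed CPM of the nuclear-encoded genes of each complex (y axis, linear, from 0) in the 20 libraries, by group (x axis), with the mean (horizontal line) and SD (vertical line) of 5 libraries. Open diamonds mark EAE 2, EAE 4 and Healthy 3; the EAE NeuN-positive 2 library stands at 3879.1 CPM for complex I and 2013.8 CPM for complex IV, above all others.

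Comparing EAE with healthy NeuN-positive nuclei, the question being how neurons change in acute disease, 8 members were called higher (13.6%) and 3 lower (5.08%) by edgeR's quasi-likelihood test at a Benjamini-Hochberg adjusted p under 0.05. Of all 16675 genes tested, 6.55% were called higher and 3.68% lower. The members' log2 differences had a median of 0.62, with 49 above 0 and 10 below, against a median of -0.03 over all genes tested. Without EAE 2, EAE 4 and Healthy 3, 1 member was called higher (1.69%, against 7.21% of all genes) and 0 lower (1.83% of all genes), and the median was 0.30 (0.01 over all genes). In that fit 19 members had an unadjusted p under 0.05, against 33 with all libraries. Leaving out EAE 2 alone left 1 member higher, and leaving out EAE 3 alone left 20. By complex, 7 of 36 complex I genes were higher and 1 lower, 0 of 4 complex II genes either way, 0 of 9 complex III genes higher and 2 lower, and 1 of 10 complex IV genes higher and 0 lower. In bulk samples, fewer cells of a type and less RNA per cell cannot be told apart.

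In NeuN-negative nuclei, 6 members were called higher in EAE (10.2%) and 3 lower (5.08%), against 15.1% and 12.6% of the 17604 genes tested. The members' median log2 difference was 0.31, against 0.05 over all genes. Both shares of members were below those of all genes. Without the 3 replicates, 4 were higher (6.78%, against 17.4% of all genes) and 1 lower (1.69%, against 12.3%), with a median of 0.37 (0.03 over all genes). In this sort 2 complex I, 1 complex III and 3 complex IV genes were higher, and 2 complex I and 1 complex III gene were lower.

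**Figure D2:**
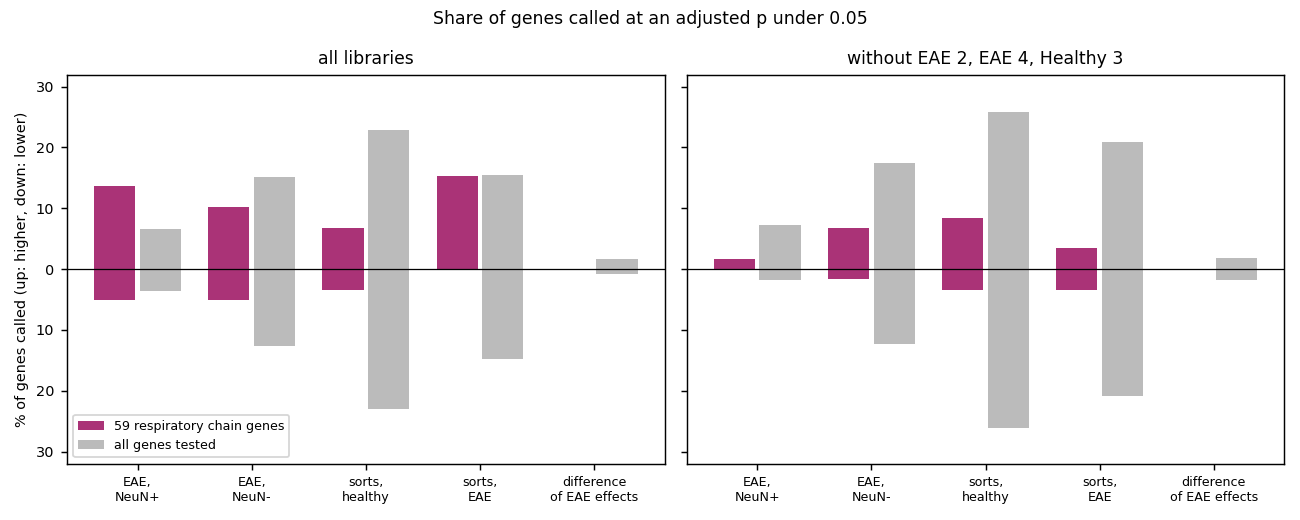
Percent of the 59 respiratory chain genes (purple) and of all genes tested (grey) called higher (upward bars) or lower (downward bars) at an adjusted p under 0.05, in 5 comparisons (x axis), with all libraries (left) and without EAE 2, EAE 4 and Healthy 3 (right). The members exceed all genes in the EAE comparison of NeuN-positive nuclei with all libraries, at 13.6 against 6.55% higher and 5.08 against 3.68% lower, and in no other pair of bars.

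Ndufv1 fell in both sorts, and in NeuN-negative nuclei its difference was the largest of any member. Ndufv1 (ENSMUSG00000037916; GRCm38 chromosome 19, 4007384 to 4012806, minus strand) encodes the subunit of complex I where NADH is oxidized. In NeuN-negative nuclei it stood at 237, 243, 285, 253 and 139 CPM in healthy libraries 1 to 5 and at 51.5, 17.7, 97.1, 46.6 and 30 CPM in EAE libraries 1 to 5. Every EAE library lay below every healthy one. The log2 difference was -2.05 ± 0.41 (SE, 5 against 5 libraries; edgeR adjusted p = 0.00183) and -1.63 ± 0.38 without the 3 replicates (edgeR adjusted p = 0.00645), and the call held in all 15 alternatives run. In NeuN-positive nuclei Ndufv1 stood at 245, 219, 322, 275 and 136 CPM in healthy and at 75.1, 78, 152, 71.1 and 54 CPM in EAE libraries. EAE 3 was above Healthy 5, and the other 4 EAE libraries were below all healthy ones. The log2 difference was -1.41 ± 0.30 (edgeR adjusted p = 0.0103), and without the 3 replicates -1.10 ± 0.35 (edgeR adjusted p = 0.0777), the 1 of 15 alternatives in which the call was lost.

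Ndufs8, an iron-sulfur subunit of complex I near the ubiquinone site, fell in NeuN-negative nuclei. It stood at 35.5, 35.4, 58.3, 48.3 and 39.7 CPM in healthy and at 30.1, 6.93, 25.9, 18.2 and 9.79 CPM in EAE NeuN-negative libraries, with no overlap. The log2 difference was -1.05 ± 0.36 (edgeR adjusted p = 0.0392), and -0.63 ± 0.35 without the 3 replicates (edgeR adjusted p = 0.191). The call for Ndufs8 held in 9 of 15 alternatives. In NeuN-positive libraries its means were 37.7 ± 11.5 CPM in healthy and 41.4 ± 16.3 CPM in EAE mice, the groups overlapped, and the log2 difference was 0.23 ± 0.31 (edgeR adjusted p = 0.656).

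The 6 members that form the core electron path and ubiquinone site of complex I (Ndufs1, Ndufs3, Ndufs7, Ndufs8, Ndufv1 and Ndufv2, grouped by known function with the values already seen) had lower medians than the other complex I genes, with exceptions on both sides. Their median log2 difference was -0.16 in NeuN-positive nuclei (0 called higher, 1 lower, 2 above 0) and -0.62 in NeuN-negative nuclei (0 called higher, 2 lower, 1 above 0). The other 30 complex I genes, which are accessory subunits or are grouped with them here, had medians of 0.81 (7 called higher, 0 lower, 28 above 0) and 0.31 (2 called higher, 0 lower, 26 above 0). Without the 3 replicates the medians were -0.23 and 0.33 in NeuN-positive and -0.35 and 0.40 in NeuN-negative nuclei. All 6 core genes have coding sequences over 600 bases (636 to 2181), whereas of the others only Ndufa9, Ndufa10 and Ndufv3 do. This grouping nearly repeats the split by coding length given below, and the 2 cannot be told apart here. Ndufa4, counted with complex I by its symbol, is now known as a subunit of complex IV.

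The 7 called rises of complex I in NeuN-positive nuclei were all among the 30 genes counted as accessory, which make up most of its 36 members. Ndufb3, of the membrane arm (ENSMUSG00000026032; GRCm38 chromosome 1, 58586384 to 58595964, plus strand), stood at 9.79, 11.2, 8.64, 9.86 and 15.2 CPM in healthy and at 24.4, 70.2, 12.9, 38 and 31.3 CPM in EAE NeuN-positive libraries. EAE 2 was highest, and EAE 3 lay below Healthy 5. The log2 difference was 1.81 ± 0.40 (edgeR adjusted p = 0.0114), held in 14 of 15 alternatives, and was 1.10 ± 0.32 without the 3 replicates (edgeR adjusted p = 0.0607). In NeuN-negative nuclei Ndufb3 had means of 13.9 ± 7.16 CPM in healthy and 22 ± 6.92 CPM in EAE libraries and was not called (0.95 ± 0.37, edgeR adjusted p = 0.0651).

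Ndufa1, a small membrane-arm subunit encoded on the X chromosome, was called in both sorts. In NeuN-positive nuclei it stood at 7.14, 9.71, 11.3, 12.7 and 13.4 CPM in healthy and at 22.7, 74.5, 10.2, 29.1 and 25.9 CPM in EAE libraries, a log2 difference of 1.70 ± 0.45 (edgeR adjusted p = 0.0292). In NeuN-negative nuclei it stood at 5.64, 6.01, 7.2, 7.17 and 21.6 CPM in healthy and at 29.9, 9.14, 12.3, 21 and 23.9 CPM in EAE libraries, a log2 difference of 1.28 ± 0.42 (edgeR adjusted p = 0.0341). Healthy 5 overlapped the EAE range in NeuN-negative nuclei, and EAE 3 overlapped the healthy range in NeuN-positive nuclei. Without the 3 replicates the differences were 0.99 ± 0.36 and 1.35 ± 0.49 (edgeR adjusted p = 0.105 and 0.0538). Of 15 alternatives, the calls held in 8 in NeuN-positive and 6 in NeuN-negative nuclei.

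The other 5 called rises of complex I in NeuN-positive nuclei shared the same 2 extreme libraries. Ndufa5, a subunit of the peripheral arm, stood at 24.9, 28, 52.6, 38.2 and 25.3 CPM in healthy and at 77.6, 213, 27.4, 99 and 98.2 CPM in EAE libraries (log2 difference 1.71 ± 0.45, edgeR adjusted p = 0.0274). Ndufb8, of the membrane arm, stood at 34.1, 37.7, 53.8, 47.1 and 40.1 CPM in healthy and at 103, 296, 31.1, 76.1 and 79.4 CPM in EAE libraries (1.58 ± 0.48, edgeR adjusted p = 0.0493). EAE 3 lay within the healthy range or below it for both genes, and Ndufb8 shares 134 bases with the gene Gm20538 on the same strand. Ndufa12, which sits on the peripheral arm, stood at 23.8, 27, 44.2, 33.9 and 19.1 CPM in healthy and at 68.1, 150, 24, 63.7 and 76.2 CPM in EAE libraries (1.47 ± 0.41, edgeR adjusted p = 0.0379). Ndufa3, of the membrane arm, stood at 29.5, 35.6, 82.5, 53.3 and 31.6 CPM in healthy and at 95.2, 193, 46.2, 122 and 114 CPM in EAE libraries (1.39 ± 0.40, edgeR adjusted p = 0.0401). Ndufa8, on the intermembrane space side, stood at 32, 37.2, 37.4, 46.1 and 27.2 CPM in healthy and at 77.8, 162, 35.4, 74.7 and 75.6 CPM in EAE libraries (1.35 ± 0.35, edgeR adjusted p = 0.0268). In all 5 genes the EAE libraries other than EAE 3 lay above the healthy range, and EAE 3 lay within or below it. Ndufa3 alone remained called without the 3 replicates, at 1.31 ± 0.32 (edgeR adjusted p = 0.0321). Of 15 alternatives, the call held in 6 for Ndufa5, 4 for Ndufb8, 5 for Ndufa12, 6 for Ndufa3 and 9 for Ndufa8.

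In NeuN-negative nuclei the other called rise of complex I was Ndufa2, a peripheral-arm subunit with a thioredoxin-like fold. It stood at 20.6, 23.3, 46, 34.8 and 32.6 CPM in healthy and at 72.5, 33.1, 46.6, 44 and 49.5 CPM in EAE libraries, with EAE 2 and EAE 4 inside the healthy range. The log2 difference was 0.86 ± 0.30 (edgeR adjusted p = 0.0433), and 1.25 ± 0.28 without the 3 replicates (edgeR adjusted p = 0.00569). Its call held in 5 of 15 alternatives. Over all complex I genes the log2 differences ran from -1.41 to 1.81 in NeuN-positive and from -2.05 to 1.28 in NeuN-negative nuclei.

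**Figure D3:**
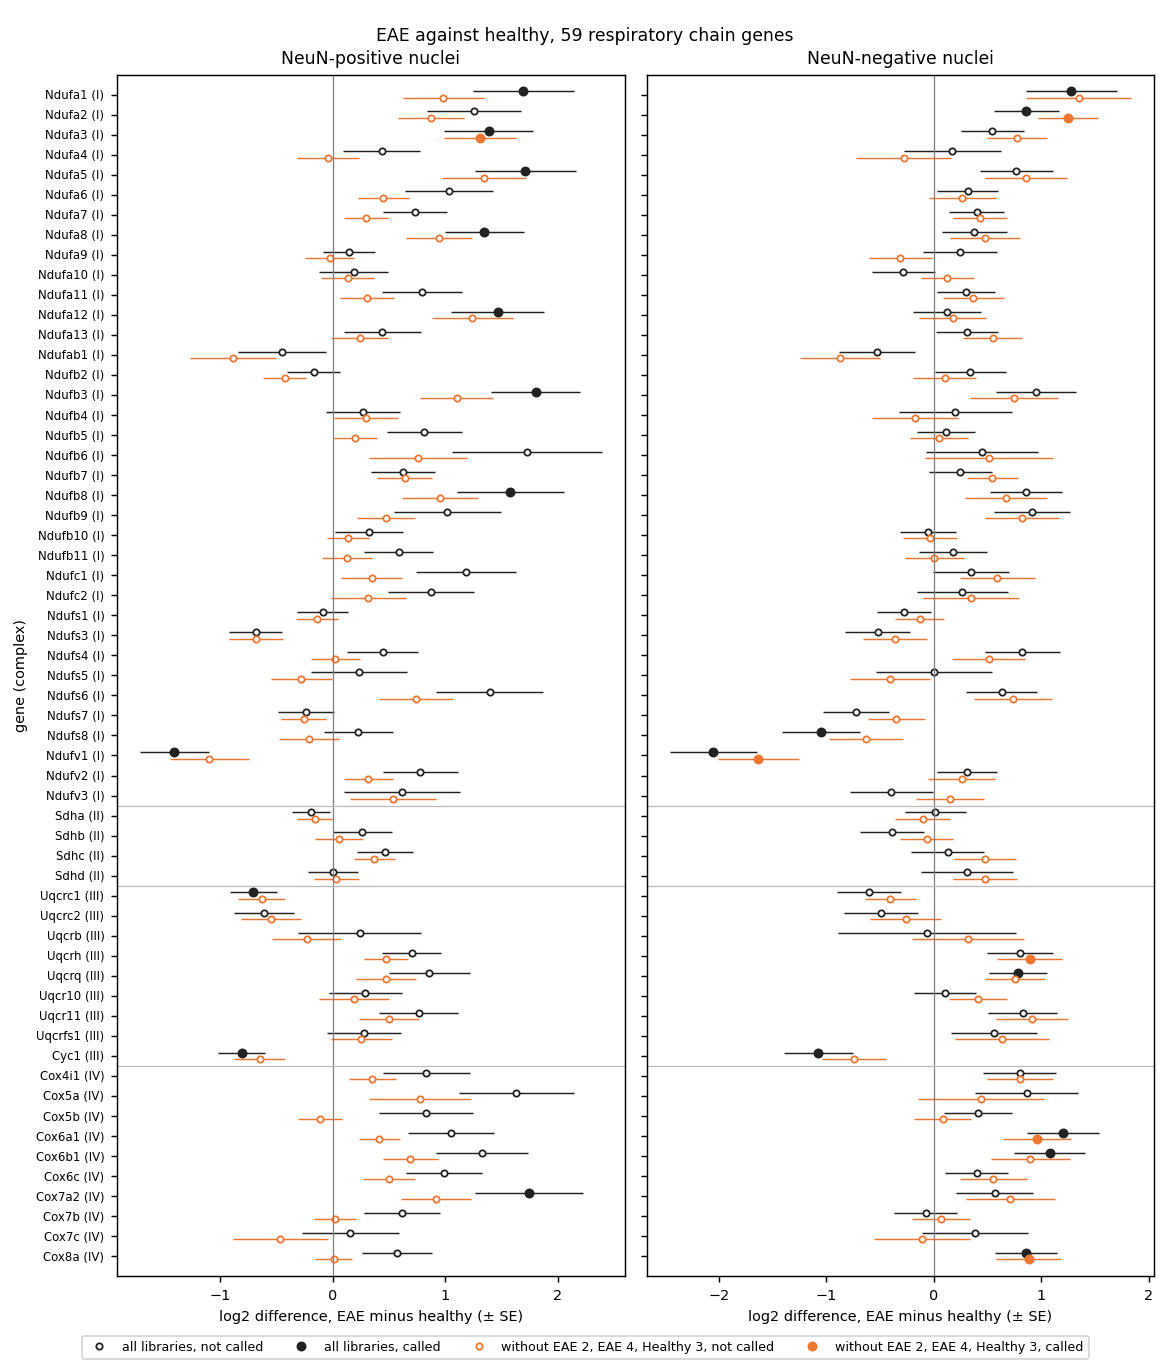
Log2 difference between EAE and healthy libraries (x axis, ± SE) of the 59 genes (y axis, by complex) in NeuN-positive (left) and NeuN-negative (right) nuclei, with all libraries (black) and without EAE 2, EAE 4 and Healthy 3 (orange); filled points were called at an adjusted p under 0.05. Ndufv1 lies lowest in both panels, at -1.41 and -2.05 with all libraries, and most black points of the left panel lie above 0 (49 of 59).

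None of the 4 complex II genes was called in either EAE comparison by edgeR, and none had an unadjusted p under 0.05. Complex II is succinate dehydrogenase, which also serves the citric acid cycle. Its log2 differences ran from -0.20 to 0.46 in NeuN-positive and from -0.39 to 0.31 in NeuN-negative nuclei. Both ranges lay inside those of the complex I genes.

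In complex III the called changes were falls of subunits with long coding sequences and a rise of a short one. Cyc1, cytochrome c1, which hands electrons to cytochrome c (ENSMUSG00000022551; GRCm38 chromosome 15, 76343523 to 76346260, plus strand), stood at 154, 141, 131, 157 and 123 CPM in healthy and at 71.5, 33.4, 106, 37.6 and 41.2 CPM in EAE NeuN-negative libraries. The groups did not overlap, and the log2 difference was -1.07 ± 0.32 (edgeR adjusted p = 0.0214). In NeuN-positive nuclei it stood at 218, 222, 232, 261 and 170 CPM in healthy and at 111, 107, 172, 108 and 100 CPM in EAE libraries, a log2 difference of -0.81 ± 0.21 (edgeR adjusted p = 0.0273). EAE 3, at 172 CPM, was the 1 EAE library above the lowest healthy one. Without the 3 replicates the differences were -0.75 ± 0.30 and -0.65 ± 0.22 and were not called (edgeR adjusted p = 0.0764 and 0.0932). Of 15 alternatives, the calls held in 12 in NeuN-negative and 7 in NeuN-positive nuclei.

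Uqcrc1, a core protein of complex III (ENSMUSG00000025651; GRCm38 chromosome 9, 108936633 to 108949623, plus strand), stood at 183, 199, 233, 239 and 154 CPM in healthy and at 116, 111, 142, 129 and 87.2 CPM in EAE NeuN-positive libraries. The groups did not overlap, and the log2 difference was -0.70 ± 0.21 (edgeR adjusted p = 0.0485; 0.0861 without the 3 replicates). In NeuN-negative nuclei it stood at 108, 105, 109, 117 and 122 CPM in healthy and at 80, 27.4, 83.7, 70.3 and 53.9 CPM in EAE libraries, again without overlap, with a log2 difference of -0.60 ± 0.30 that was not called (edgeR adjusted p = 0.136). Uqcrq, a small subunit, stood at 25.4, 31.6, 34.1, 46.7 and 44.8 CPM in healthy and at 61.7, 45.1, 53.2, 57.6 and 44.7 CPM in EAE NeuN-negative libraries (0.78 ± 0.27, edgeR adjusted p = 0.0403; 0.0577 without the 3 replicates). The hinge protein gene Uqcrh was called in NeuN-negative nuclei only without the 3 replicates (0.89 ± 0.30, edgeR adjusted p = 0.0418; 0.80 ± 0.31 and 0.0621 with them). Of 15 alternatives, the call of Uqcrc1 in NeuN-positive nuclei held in 4 and that of Uqcrq in NeuN-negative nuclei in 2. Cycs, the cytochrome c that complex III reduces, is not among the 59. It was at 4.65 ± 0.849 CPM in healthy and 8.15 ± 4.14 CPM in EAE NeuN-positive nuclei and was not called in either sort (edgeR adjusted p = 0.148 and 0.457).

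Complex IV genes had the highest median log2 differences of the 4 complexes, at 0.91 in NeuN-positive and 0.68 in NeuN-negative nuclei (0.38 and 0.64 without the 3 replicates). In NeuN-positive nuclei Cox7a2, a subunit isoform found in most tissues, stood at 21.8, 26.4, 30.2, 32.3 and 28.3 CPM in healthy and at 58.3, 225, 24.2, 60.4 and 59.4 CPM in EAE libraries. EAE 2 stood far above the others and EAE 3 lay inside the healthy range. The log2 difference was 1.75 ± 0.48 (edgeR adjusted p = 0.0349), and 0.92 ± 0.31 without the 3 replicates (edgeR adjusted p = 0.0872). In NeuN-negative nuclei Cox6a1, the non-muscle isoform of its subunit, stood at 41.7, 54.1, 72.2, 66.4 and 104 CPM in healthy and at 129, 139, 83.1, 169 and 117 CPM in EAE libraries (1.21 ± 0.34, edgeR adjusted p = 0.015; 0.0365 without the 3 replicates). Cox6b1, on the intermembrane face, stood at 24.3, 31, 35.8, 42.3 and 78.7 CPM in healthy and at 82.7, 94.2, 53.2, 61.7 and 73.4 CPM in EAE libraries (1.08 ± 0.33, edgeR adjusted p = 0.0252; 0.0836 without the 3 replicates). Cox8a, a small transmembrane subunit, stood at 37.8, 49, 55.9, 63.8 and 91.9 CPM in healthy and at 113, 81, 81.3, 84.9 and 90.6 CPM in EAE libraries (0.86 ± 0.29, edgeR adjusted p = 0.0348; 0.0435 without the 3 replicates). For these 3 genes Healthy 5 was the healthy library that overlapped the EAE range. Their calls held in 10 of 15 alternatives for Cox6a1 and in 5 each for Cox6b1 and Cox8a. That of Cox7a2 in NeuN-positive nuclei held in 7.

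**Figure D4:**
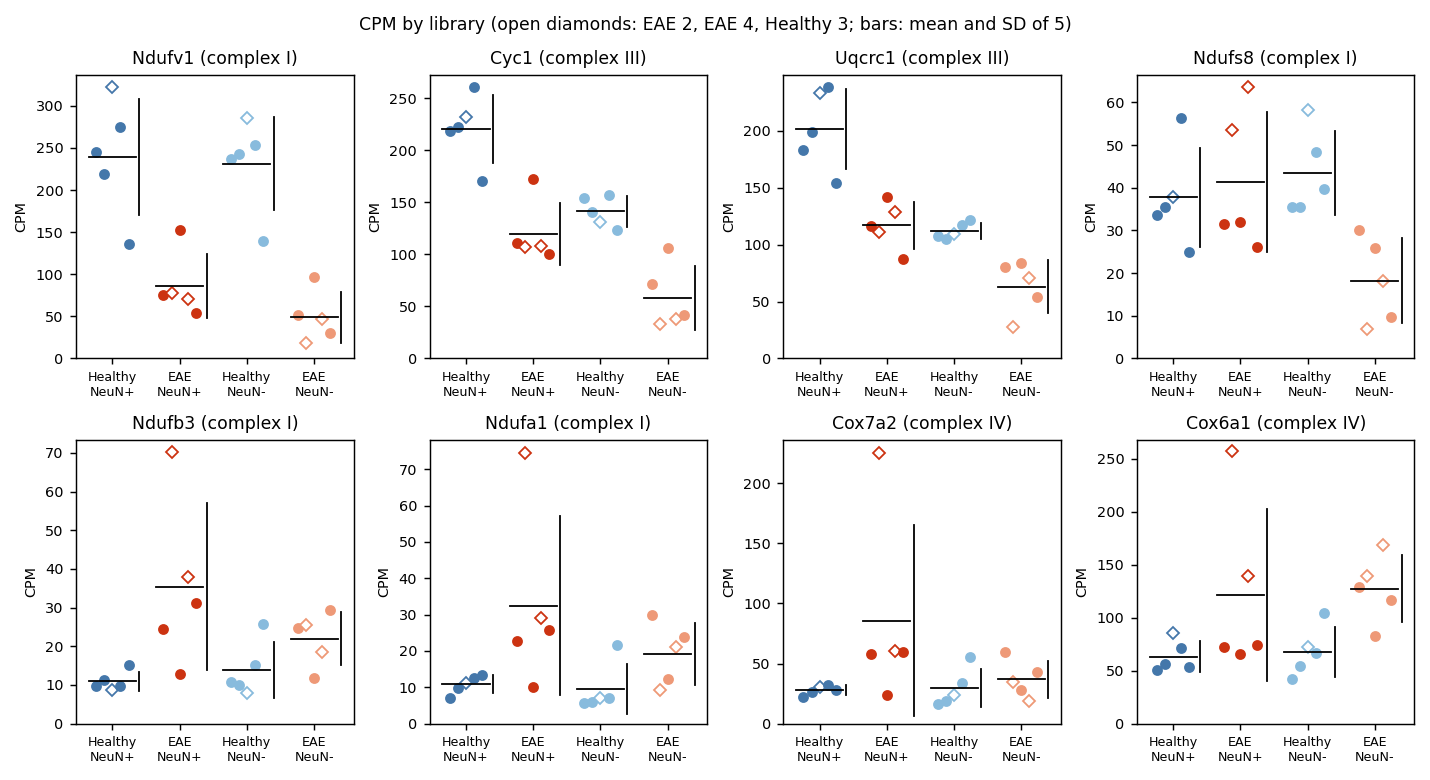
CPM (y axes, linear, from 0) of 8 genes in the 20 libraries by group (x axes), with the mean (horizontal line) and SD (vertical line) of 5 libraries; open diamonds mark EAE 2, EAE 4 and Healthy 3. Ndufv1, Cyc1 and Uqcrc1 are lower in EAE in both sorts on average, whereas the high EAE NeuN-positive means of Ndufb3, Ndufa1 and Cox7a2 include EAE 2 at 70.2, 74.5 and 225 CPM.

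No member had all 5 EAE libraries above all 5 healthy ones in NeuN-positive nuclei (5.16% of all genes did) or in NeuN-negative nuclei (7.04%). All EAE libraries lay below all healthy ones for 2 members in NeuN-positive nuclei, Uqcrc1 and Sdha (4.75% of all genes), and for 4 in NeuN-negative nuclei, Ndufv1, Ndufs8, Cyc1 and Uqcrc1 (11.6%). These shares of members, 3.39 and 6.78%, were below those of all genes. The log2 difference of Sdha in NeuN-positive nuclei was -0.20 ± 0.17 and was not called (edgeR adjusted p = 0.466).

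Across members, the EAE difference went with the length of the coding sequence and also with exon length. Over the 59 genes Spearman's rank correlation between the log2 difference and coding length was -0.479 in NeuN-positive and -0.549 in NeuN-negative nuclei (-0.36 and -0.537 without the 3 replicates). These are descriptions without a test, since the genes share the same libraries and are not independent. Over all genes tested with a coding sequence the correlation was -0.121 and -0.0823. The 44 members with a coding sequence under 600 bases, a limit chosen after the data were seen, had median log2 differences of 0.82 and 0.39 (0.36 and 0.49 without the 3 replicates). The 15 members at or over 600 bases, which include all 6 core complex I genes, had medians of -0.09 and -0.40 (-0.16 and -0.26 without the 3 replicates). Over all genes the medians were 0.26 and 0.26 under 600 bases (1751 and 1835 genes) and -0.08 and -0.06 at or over it. For exon length the rank correlation over the members was -0.478 and -0.491 (-0.385 and -0.517 without the 3 replicates). Over all genes tested it was -0.0669 and -0.111. Coding length and exon length were not tested apart. The rank correlation with the GC content of the transcript was -0.0694 and -0.0523 over the members. Between the sorts the rank correlation with coding length was -0.0228 in healthy and 0.00774 in EAE mice with all libraries, and 0.067 and 0.258 without the 3 replicates.

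**Figure D5:**
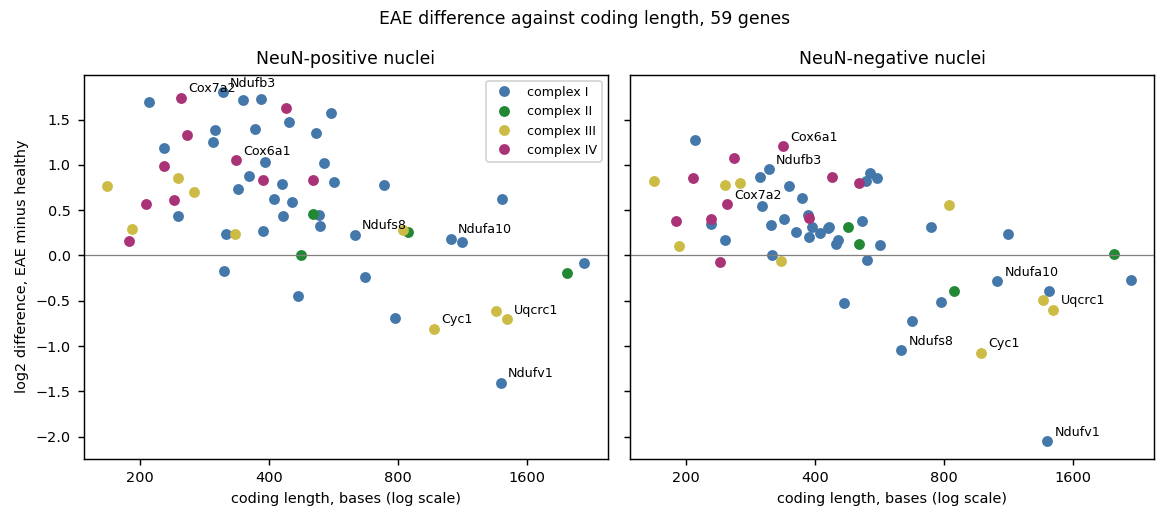
Log2 difference between EAE and healthy libraries (y axis) against coding length in bases (x axis, log scale) for the 59 genes, coloured by complex, in NeuN-positive (left) and NeuN-negative (right) nuclei. Short genes such as Ndufb3 and Cox7a2 lie above 0 and the long genes Ndufv1, Cyc1 and Uqcrc1 below 0 in both panels, with rank correlations of -0.479 and -0.549.

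Promoters of the members are shown for the gene that fell most (Ndufv1), the member with the highest log2 difference in NeuN-positive nuclei (Ndufb3) and 2 called genes that carry the motif of NRF1, a transcription factor known for respiratory chain genes (Ndufa8 and Cox6a1). The RefSeq table of GRCm38.p6 promoters held 49 of the 59 members. Each sequence is the 250 bases before the RefSeq start site, read along the gene, and capitals mark GCGCANGCG on either strand. The positions are chr19:4012756-4013005 (minus strand), chr1:58586147-58586396 (plus strand), chr2:36049339-36049588 (minus strand) and chr5:115348959-115349208 (minus strand). The GENCODE gene begins upstream of the RefSeq start in all 4, so the last bases of each sequence lie inside the GENCODE gene, and for Ndufa8 both matches do.
Ndufv1: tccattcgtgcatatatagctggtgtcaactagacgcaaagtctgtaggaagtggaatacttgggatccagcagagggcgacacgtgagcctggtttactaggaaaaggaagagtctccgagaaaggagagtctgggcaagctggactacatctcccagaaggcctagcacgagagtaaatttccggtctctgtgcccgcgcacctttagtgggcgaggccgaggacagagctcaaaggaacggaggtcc
Ndufb3: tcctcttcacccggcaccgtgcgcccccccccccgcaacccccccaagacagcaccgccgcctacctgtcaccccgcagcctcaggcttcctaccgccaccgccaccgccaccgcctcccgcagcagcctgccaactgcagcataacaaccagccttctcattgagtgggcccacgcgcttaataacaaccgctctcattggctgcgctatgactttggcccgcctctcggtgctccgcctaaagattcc
Ndufa8: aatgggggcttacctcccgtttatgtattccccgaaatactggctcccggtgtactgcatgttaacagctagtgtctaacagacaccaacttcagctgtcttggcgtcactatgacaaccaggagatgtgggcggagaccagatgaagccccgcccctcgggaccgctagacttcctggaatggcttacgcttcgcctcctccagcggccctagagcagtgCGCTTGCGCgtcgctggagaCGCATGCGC
Cox6a1: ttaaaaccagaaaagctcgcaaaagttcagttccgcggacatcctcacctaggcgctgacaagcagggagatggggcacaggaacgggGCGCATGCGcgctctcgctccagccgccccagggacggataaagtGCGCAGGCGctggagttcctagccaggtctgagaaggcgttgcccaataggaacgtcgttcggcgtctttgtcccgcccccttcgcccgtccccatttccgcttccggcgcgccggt

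The NRF1 motif GCGCANGCG, searched on both strands, was in 9 of the 49 member promoters (18.4%) and in 5.33% of 27018 promoters of the same length. The members with it were Ndufa5, Ndufa8, Ndufa11, Ndufb4, Ndufs5, Ndufs6, Sdha, Sdhd and Cox6a1. The median GC content of the member promoters was 57.6%, against 52% of all promoters, and the motif is itself rich in G and C. The YY1 motif AANATGGCG was in 2.04% of member promoters (1.12% of all), the ETS motif ACCGGAAG in 4.08% (1.7%), CCAAT in 36.7% (34.5%) and TATAAA in 8.16% (13%), each on both strands. None of these motifs contains another. Of the 9 genes with the NRF1 motif, Ndufa5 and Ndufa8 were called higher in NeuN-positive nuclei and Cox6a1 in NeuN-negative nuclei, and a match is a description of the sequence only.

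Between the sorts of healthy mice, the question being how neurons differ from the other cells of the cord, 4 members were higher in NeuN-positive nuclei (6.78%, against 22.8% of 17134 genes tested) and 2 lower (3.39%, against 23%). Both shares were below those of all genes, and the members had a median log2 difference of 0.11 (-0.01 over all genes). The numbers of the titles were taken to pair the libraries of the 2 sorts, which the labels do not state. The main fit does not use this pairing. Values of single genes between the sorts are from fits without the pairing unless the block is named. With the number as a replicate block, 13 members were higher (22%, against 33.2% of all genes) and 4 lower (6.78%, against 32.5%). Without Healthy 3 the counts were 5 (8.47%, against 25.8%) and 2 (3.39%, against 26.2%), the fifth being Ndufa10 (0.73 ± 0.25, edgeR adjusted p = 0.0294).

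The members higher in healthy NeuN-positive nuclei belonged to complexes I and III. Ndufb2, a small membrane-arm subunit, stood at 40.4, 41, 21.3, 36 and 47.9 CPM in NeuN-positive and at 17.6, 19.6, 14.8, 18.8 and 22 CPM in NeuN-negative libraries 1 to 5 (log2 difference 1.05 ± 0.22, edgeR adjusted p = 0.00202), with Healthy 3 inside the NeuN-negative range. Uqcrc1, at 202 ± 35.3 against 112 ± 7.02 CPM, differed by 0.88 ± 0.17 (edgeR adjusted p = 0.001), and Cyc1, at 221 ± 33.2 against 141 ± 14.6 CPM, by 0.68 ± 0.16 (edgeR adjusted p = 0.00443). For Uqcrc1 and Cyc1 every NeuN-positive library lay above every NeuN-negative one. Ndufa12, at 29.6 ± 9.78 against 17.7 ± 3.32 CPM, differed by 0.77 ± 0.28 (edgeR adjusted p = 0.0384), with overlap. The 2 lower members were Ndufb11, an X-linked membrane-arm subunit, at 21.7 ± 1.76 against 35.3 ± 9.73 CPM (-0.65 ± 0.21, edgeR adjusted p = 0.0207), and Ndufa7, a peripheral-arm subunit, at 16.4 ± 2.86 against 26.3 ± 4.73 CPM (-0.65 ± 0.20, edgeR adjusted p = 0.017). Ndufa7 libraries did not overlap. On the other strand Ndufb11 overlaps Rbm10 by 117 of its 908 exon bases, and Ndufb2 overlaps 2 genes, by up to 156 of its 5628 exon bases. The use of strand in counting is not given, so reads within those stretches cannot be told apart.

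In EAE mice, 9 members were higher in NeuN-positive nuclei (15.3%, against 15.5% of 17982 genes) and 0 lower (14.8% of all genes). The edgeR test gave 18 members an unadjusted p under 0.05, and the DESeq2 Wald test also called 0 lower. The members' median log2 difference was 0.55, against -0.16 over all genes. With DESeq2 size factors these medians were 0.45 and -0.27, so the scaling moved all genes by about as much. With the replicate block 13 members were higher (22%, against 20% of all genes) and 0 lower (17.8% of all genes). Without EAE 2 and EAE 4, 2 were higher (3.39%, against 20.9%) and 2 lower (3.39%, against 20.8%), and the median was 0.06 (-0.08 over all genes).

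The 2 members higher in EAE NeuN-positive nuclei with and without EAE 2 and EAE 4 were Ndufa12 and Ndufa10. Ndufa12 stood at 68.1, 150, 24, 63.7 and 76.2 CPM in NeuN-positive and at 20, 10.4, 11.3, 21.6 and 17.7 CPM in NeuN-negative libraries, a log2 difference of 2.11 ± 0.41 (edgeR adjusted p = 0.00106). Ndufa10, an accessory subunit related to nucleoside kinases, stood at 124, 171, 112, 216 and 120 CPM and at 84, 37.2, 60.9, 47 and 59 CPM, a difference of 1.28 ± 0.31 (edgeR adjusted p = 0.00496). Every NeuN-positive library lay above every NeuN-negative one for both genes. Among the others, Ndufc1 differed by 1.33 ± 0.44 (edgeR adjusted p = 0.0307; 0.108 with the block), Ndufa8 by 1.21 ± 0.37, Ndufb5 by 1.11 ± 0.35, Ndufs8 by 1.10 ± 0.39, the complex IV gene Cox7b by 1.10 ± 0.35 and Cyc1 by 0.98 ± 0.34 (edgeR adjusted p = 0.0192 to 0.0393 for these 5). The 2 members lower without EAE 2 and EAE 4 were Cox6a1 (-0.65 ± 0.24, edgeR adjusted p = 0.0485) and Cox8a (-0.70 ± 0.23, edgeR adjusted p = 0.0287), which were at -0.22 ± 0.40 and -0.15 ± 0.34 with all libraries.

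With all libraries, no member's EAE effect was called different between the sorts when the pairing was not used, and 1 was with the replicate block. In the edgeR interaction test over 20 libraries 0 members were higher (1.74% of 20444 genes) and 0 lower (0.822%), 4 had an unadjusted p under 0.05, and the DESeq2 Wald test also called 0. Without the 3 replicates 0 were called either way (1.83% and 1.82% of all genes), with 2 at an unadjusted p under 0.05. With the replicate block 1 member was higher (1.69%, against 9.74% of all genes) and 0 lower (2.45%). This was Ndufs8, whose EAE effect was larger in NeuN-positive than in NeuN-negative nuclei by 1.45 ± 0.45 (edgeR adjusted p = 0.0443), against 1.36 ± 0.50 without the block (edgeR adjusted p = 0.135) and 0.37 ± 0.47 without the 3 replicates. For Ndufv1 the difference of effects was 0.76 ± 0.52 and for Cyc1 0.39 ± 0.42. The median over all genes in this test was 0.15 with TMM and -0.11 with DESeq2 size factors, and the calls over all genes were 356 higher and 168 lower against 236 and 236. The members' median was 0.49 and 0.26 under these scalings and -0.06 without the 3 replicates.

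Genes that work with the respiratory chain were counted in the same fits. Of all genes tested, 6.55% were called higher and 3.68% lower in EAE in NeuN-positive nuclei. These shares were 15.1% and 12.6% in NeuN-negative nuclei, and the counts of short lists are to be read beside them. Of 18 ATP synthase genes, 2 were higher and 0 lower in EAE in each sort. They were Usmg5 (2.41 ± 0.46, edgeR adjusted p = 0.00424) and Atp5mpl (1.24 ± 0.36) in NeuN-positive nuclei, and Atp5e (0.99 ± 0.29) and Atp5mpl (0.87 ± 0.32) in NeuN-negative nuclei, all small subunits. Without the 3 replicates Atp5mpl was not called in either sort (edgeR adjusted p = 0.113 and 0.0887), while Usmg5 and Atp5e were. Of 18 complex I assembly genes, 0 were called by edgeR in NeuN-positive nuclei (6 had an unadjusted p under 0.05), while in NeuN-negative nuclei 6 were lower, among them Ndufaf2 (-1.14 ± 0.32) and Ecsit (-1.09 ± 0.32), and 1 was higher, Ndufaf8 (1.18 ± 0.39). Of these 3 genes Ndufaf2 was not called without the 3 replicates (edgeR adjusted p = 0.0521). Of 32 tested assembly genes of complexes II to IV, 1 was higher in NeuN-positive nuclei (Ttc19, for complex III, at 0.89 ± 0.27; edgeR adjusted p = 0.0478, and 0.0573 without the 3 replicates). In NeuN-negative nuclei 4 were higher, with Coa5 at 1.55 ± 0.32 and Cmc2 at 1.55 ± 0.40, and 1 lower, Cox19 at -1.43 ± 0.33.

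The citric acid cycle and pyruvate dehydrogenase list had 3 of 18 genes lower and 0 higher in each sort. Of all genes tested, 3.68% were lower in NeuN-positive and 12.6% in NeuN-negative nuclei, and 6.55% and 15.1% were higher. Idh3g, a subunit of the NAD-dependent isocitrate dehydrogenase that makes NADH, was at 297 ± 57.4 CPM in healthy and 83.1 ± 45.3 CPM in EAE NeuN-positive nuclei (-1.77 ± 0.30, edgeR adjusted p = 0.00201). In NeuN-negative nuclei it was at 173 ± 37.3 and 46 ± 28.5 CPM (-1.71 ± 0.37, edgeR adjusted p = 0.00321). Idh3b, of the same enzyme, fell by 1.16 ± 0.25 and 1.21 ± 0.37 on the log2 scale, and both genes were also called without the 3 replicates in both sorts. Of 16 regulators of mitochondrial biogenesis, Polrmt, the mitochondrial RNA polymerase, fell in both sorts (-1.10 ± 0.32 and -1.12 ± 0.36). Ppargc1b, a coactivator of respiratory genes, rose in NeuN-negative nuclei (2.33 ± 0.58), and Ppargc1a, its better known relative, was not called in either (0.24 ± 0.27 and -0.07 ± 0.39). Among further subunits and isoforms, Cox7a2l, a factor that joins complexes into supercomplexes, was higher in both sorts (0.97 ± 0.26 and 0.86 ± 0.29). In NeuN-positive nuclei it was not called without the 3 replicates (0.67 ± 0.19, edgeR adjusted p = 0.0519). Cox6b2 was lower in NeuN-negative nuclei (-1.88 ± 0.34). Ndufb1 was not found in the table by symbol.

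The mitochondrially encoded partners were measured only in part. Of 13 genes, 7 were tested, and mt-Co2, mt-Co3, mt-Nd4l and mt-Atp8 were listed at 0 in all 20 libraries, while mt-Co1 held 1338976 counts in all. The annotation holds near-identical nuclear copies of mitochondrial genes, for example Gm28437 on chromosome 1 with a 783-base match to mt-Co3 at 100% identity, and the sources used here do not say how reads of such copies were counted. mt-Co1, of complex IV, had a log2 difference of 2.19 ± 0.97 in NeuN-positive nuclei (edgeR adjusted p = 0.157; 0.0378 without the 3 replicates) and 2.33 ± 0.84 in NeuN-negative nuclei (edgeR adjusted p = 0.0476). mt-Cytb, of complex III, had 2.17 ± 0.96 and 2.39 ± 0.82, and mt-Nd1, of complex I, 1.87 ± 0.97 and 2.05 ± 0.81. In NeuN-positive nuclei 0 of the 7 were called by edgeR with all libraries (5 had an unadjusted p under 0.05), and 5 without the 3 replicates. In NeuN-negative nuclei 5 and 7 were higher. The shares of all genes called higher were 6.55 and 7.21% in NeuN-positive and 15.1 and 17.4% in NeuN-negative nuclei.

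Other transcripts moved in the same comparisons. Of 58 cytosolic ribosomal protein genes, also mostly short, 25 were higher and 3 lower in EAE in NeuN-positive nuclei (median log2 difference 0.98) and 34 and 1 in NeuN-negative nuclei (1.21). These counts were 24 and 3, and 37 and 2, without the 3 replicates. Examples were Rps9 at 1.53 ± 0.26 and Rplp2 at 1.86 ± 0.34, and lower Rpl10a at -2.45 ± 0.50 and Rpl12 at -1.23 ± 0.34, in NeuN-positive nuclei, and Rps20 at 2.14 ± 0.29 and Rps19 at 2.16 ± 0.31 in NeuN-negative nuclei. Monocyte and macrophage markers were higher in EAE for 11 of 12 genes in NeuN-positive nuclei, where their summed level was 8.35 to 31.8 CPM in healthy and 325 to 1950 CPM in EAE libraries. They were higher for 12 of 12 in NeuN-negative nuclei (65.3 to 116 and 771 to 2610 CPM). Of the T cell markers, 5 of 8 tested were higher in NeuN-positive nuclei (10.3 to 33.1 CPM in healthy and 38.4 to 131 CPM in EAE libraries) and 12 of 12 in NeuN-negative nuclei (6.78 to 18.8 and 145 to 308 CPM). Among 13 oligodendrocyte markers, NeuN-positive nuclei had 2 called higher and 0 lower, and NeuN-negative nuclei 0 higher and 8 lower. In the latter their summed level had a median of 51600 CPM in healthy and 65200 CPM in EAE libraries, so the sum and the count differed in direction. Among 11 astrocyte markers, NeuN-positive nuclei had 2 called higher and 1 lower (341 to 688 and 496 to 1220 CPM), and NeuN-negative nuclei 0 higher and 4 lower (2230 to 4010 and 853 to 2760 CPM). Of 15 neuron markers 0 were called in either sort by edgeR (3 and 2 had an unadjusted p under 0.05), with summed levels of 25600 to 28200 and 22300 to 34000 CPM in NeuN-positive nuclei. In NeuN-positive and NeuN-negative nuclei respectively, 4 of 10 and 2 of 11 microglia markers, 6 of 7 and 6 of 7 neutrophil markers and 2 of 9 and 2 of 9 endothelial markers were higher. Of the skeletal muscle markers, 0 of 7 tested were called higher in NeuN-positive and 1 of 7 in NeuN-negative nuclei. For the erythroid markers these counts were 0 of 3 and 0 of 4. Of the markers, Cxcr2, a neutrophil receptor, was at 0 in every healthy NeuN-positive library. The part of these cell types and transcripts in the results for the 59 genes was not tested.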

How the data were processed

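Polyadenylated RNA of sorted nuclei was sequenced in 20 libraries, 5 per group. The authors deposited whole-number read counts per Ensembl gene ID, without normalization. STAR 2.4, DESeq2 and the builds GRCm39 and mm10 are named per the submitters' processing notes, with no roles; the counter, annotation and use of strand are not stated. IDs were matched to GENCODE M21 (GRCm38), which gave a symbol to 42462 of 43629. Genes were filtered with filterByExpr by group, scaled by TMM and tested with edgeR 4.0.16 (quasi-likelihood, robust, R 4.3.3), with Benjamini-Hochberg adjustment over all genes tested. The script was tested on simulated data. Each EAE and sort comparison used its own 2 groups of 5 libraries, and the difference of effects used all 20.

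The 59 members, the other gene lists and the 3 replicates left out were chosen with earlier results of these data known. Named genes were all members called in an EAE comparison or in the difference of effects, the extremes of level per length, the called members with the largest and smallest differences between sorts, up to 2 called genes each way per pathway list, and a few fixed genes, not all of which are reported here. Alternatives were DESeq2 1.42.0 (size factors, Wald test), no count filter, the replicate block and leaving out replicates.

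Deviations of same-numbered libraries from their group means correlated between the sorts at 0.204 to 0.473 in EAE and 0.409 to 0.77 in healthy mice. All were over the limit of 0.1 set here, so the numbers of the titles were taken as pairs there. Differently numbered libraries correlated at -0.308 to 0.217 in EAE and -0.576 to 0.452 in healthy mice. The ranges overlapped, so the correlations do not settle the pairing, which the labels do not state. No 2 libraries were identical: over 40 pairs within groups, chi-square per gene was 11.1 to 393.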

Additional observations from a re-analysis of the deposited data

Results flagged for a closer look

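Of 88 groups of 5 values examined, 10 had a highest library whose gap to the next exceeded Dixon's 95% critical value of 0.71 times the group's range. Chance flags about 1 in 20 groups, and the genes share libraries, so the flags are not independent. In 5 of them the library was EAE NeuN-positive 2. Complex IV genes summed to 2010 CPM there (next 889), Cox7a2 stood at 225 CPM (next 60.4), Ndufb8 at 296 (next 103), Cox6b1 at 231 (next 85.4) and Ndufa2 at 147 (next 55.4). In EAE NeuN-positive 3, Ndufv1 stood at 152 CPM (next 78) and Cyc1 at 172 CPM (next 111). Complex I genes summed to 1620 CPM in EAE NeuN-negative 1 (next 1240). Ndufa1 stood at 21.6 CPM in Healthy NeuN-negative 5 (next 7.2). Mitochondrially encoded transcripts took 2.33% of counts in Healthy NeuN-positive 3 (next 0.572%).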

How the results depend on the processing

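No call of a named member changed direction under any alternative. Of 165 re-tests of the members called in the EAE comparison of NeuN-positive nuclei, 84 kept the call, and the numbers were 69 of 135 in NeuN-negative nuclei, 78 of 90 between healthy sorts and 102 of 135 between EAE sorts. In NeuN-positive nuclei the 8 higher members became 15 with the DESeq2 Wald test, 1 with the replicate block and 1 without EAE 2, EAE 4 and Healthy 3, and 1 to 20 with single libraries left out (1 without EAE 2, Healthy 1 or Healthy 2, 2 without EAE 4 or Healthy 4, 3 without Healthy 5, 4 without EAE 5, 5 without EAE 1 and 20 without EAE 3). The 3 lower members became 1 with the block, 0 without the 3 replicates and 1 to 4 with single libraries left out (1 without EAE 1, 4 or 5 or Healthy 1, 2 or 4). In NeuN-negative nuclei the 6 higher members became 12 with the Wald test, 0 with no count filter, 3 with the block and 0 to 9 with single libraries left out (0 without EAE 4 or Healthy 1, 2 or 4, 1 without EAE 1 or 5, 3 without EAE 2 or Healthy 3). The 3 lower became 1 without the 3 replicates and 1 to 4 with single libraries left out (1 without EAE 4 or 5). Between healthy sorts the 4 higher became 13 with the block and 3 to 9 with single libraries left out (9 without Healthy NeuN-negative 5), and the 2 lower became 0 with no count filter, 4 with the block and 1 to 2 (1 without Healthy NeuN-positive 1 or 2). Between EAE sorts the 9 higher became 2 without EAE 2 and EAE 4 and 4 to 13 with single libraries left out (5 without EAE NeuN-negative 4, 4 without EAE NeuN-negative 5), and the 0 lower became 2. For the difference of effects the 0 higher became 1 with the block and 0 to 1 with single libraries left out (1 without EAE NeuN-positive 3). The cause was not tested. Between EAE and healthy libraries the numbers did not pair (same-number correlations of -0.385 to 0.29 and -0.343 to 0.314), so the block there is a check only. Of 40 summed levels under other scalings 37 moved by less than 1 SD. The limits are 5 libraries a group, unknown strand use and depths from 3149209 counts, so a member that was not called is not shown to be unchanged.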
